A study of Mus musculus with 4 samples.

Results

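The Zfp36 and Btg families encode proteins that shorten the life of messenger RNA, and 6 of their genes were followed here in mouse hippocampus: Zfp36, Zfp36l1 and Zfp36l2, and Btg1, Btg2 and Btg3. They are 6 of the 23466 gene symbols in the authors' deposited table. The members were taken by symbol, and where a symbol had several transcript records the one with the highest mean over the 4 libraries would stand for it. Each of the 6 has 1 record, so that step chose nothing. The families were selected on measured values, the differences between mutant and wild-type in these same libraries, so the differences below are descriptions and support nothing by themselves.

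The libraries came from frozen hippocampus of mice at postnatal day 30, on the C57BL/6N background. Mutants 38 and 39 carry a conditional allele of Atp6ap2, which encodes an accessory subunit of the vacuolar proton pump, together with the Camk2a-Cre transgene (Atp6ap2Camk2aCre/0). Their condition field calls them conditional het, while their titles call them ko. Wild-types 11 and 73 are the controls, and the labels give no further allele for them and do not say whether a sample pools several animals. The Camk2a promoter drives Cre in forebrain excitatory neurons, and glia, vessels and choroid plexus in the same tissue are not its target. The comparison asks how the hippocampal transcriptome of such mutants differs from that of wild-types. In bulk tissue, fewer cells of a type and less RNA per cell cannot be told apart.

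Proteins of the Zfp36 family bind AU-rich elements in the 3′ untranslated region of messages through a tandem pair of CCCH zinc fingers and recruit the CCR4-NOT deadenylase, which removes the poly(A) tail. Zfp36 itself, also called tristetraprolin, is an early response gene that growth factors and inflammatory signals induce within minutes, and it restrains its own message in the same way. Btg proteins, with the related Tob proteins, bind the deadenylase subunits Cnot7 and Cnot8 through their shared amino-terminal domain. Btg1 and Btg2 slow the division of neural progenitors in the dentate gyrus, the part of the hippocampus that makes neurons after birth, and Btg2 is both an early response gene and a target of p53.

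The sites that Zfp36 proteins read are present in the messages of most members. The heptamer TATTTAT occurs 3 times in the 3′ untranslated region of Zfp36, 3 times in Zfp36l1, 3 times in Zfp36l2, once in Btg2, 2 times in Btg3 and in no copy in Btg1. These counts come from GENCODE M21 transcript models (mouse build GRCm38) matched to the deposited RefSeq records, read on the strand of the message only. Of 16038 tested genes with such a region, 26.9% hold at least 1 heptamer, and 6.96% hold the longer nonamer TTATTTATT, which contains it. Zfp36, Zfp36l1 and Zfp36l2 have 1 nonamer each, and the Btg members have none. The sites below are shown because they are of the kind Zfp36 proteins are known to bind, and lie in messages of the members themselves. They read 5′ to 3′ in DNA letters, and the capitals mark the heptamers. The first heptamer of the stretch shown starts at base 575 of the 3′ untranslated region in Zfp36 and base 1405 in Zfp36l1. It starts at base 822 in Zfp36l2 and base 103 in Btg2. Zfp36l1 has earlier heptamers, at bases 1150 and 1191, which are not shown.
Zfp36: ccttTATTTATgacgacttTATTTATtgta
Zfp36l1: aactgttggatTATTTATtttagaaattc
Zfp36l2: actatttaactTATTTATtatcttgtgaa
Btg2: aaatgaagagcTATTTATacatgtttttt
A match is a description of the letters and not evidence of binding.

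Values are scaled read equivalents. The deposited values are sums of aligned bases over a transcript after 1 scaling factor per library, and dividing them by the read length of 42 bases gives a number on the scale of reads. The libraries held 18328405 (mutant 38), 17543464 (mutant 39), 18339838 (wild-type 11) and 10023033 (wild-type 73) read equivalents over genes before scaling. Atp6ap2 had 2551 and 2522 scaled read equivalents in mutants 38 and 39, against 2312 and 2637 in wild-types 11 and 73, so the groups overlapped for the targeted gene over its whole transcript (log2 fold change 0.039 ± 0.10 SE, 2 libraries a group, limma adjusted p = 0.991). Deleted exons were not examined one by one. All 8 markers of hippocampal excitatory neurons were measured, with summed levels of 58250 and 64623 in the mutants and 60417 and 65726 in the wild-types. Both mutants lay above both wild-types for 0 of the 8 and below them for 1, and 1 had an unadjusted p under 0.05 in limma. Over all genes tested these shares were 16.8%, 16.5% and 3.94%.

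Choroid plexus, a secretory tissue beside the hippocampus, was present in unequal amounts. Its 10 markers, led by the thyroxine carrier gene Ttr, summed to 79790 and 2781 scaled read equivalents in mutants 38 and 39, against 47514 and 3624 in wild-types 11 and 73. All 10 were higher in mutant 38 and wild-type 11 than in mutant 39 and wild-type 73, and 0 of the 10 were at 0 in every library. The unequal libraries thus sit 1 in each group, and results are given below with and without this level in the model where it changes a call.

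Zfp36 was the member that differed most. It had 247.8 scaled read equivalents in mutant 38 and 208.7 in mutant 39, against 92.6 in wild-type 11 and 81.2 in wild-type 73. The groups did not overlap, and the lower mutant was 2.25 times the higher wild-type. The means were 228.2 ± 27.7 in the mutants and 86.9 ± 8.06 in the wild-types (SD, n = 2 each), a ratio of 2.63. Libraries of a group differed by 1.19-fold among the mutants and by 1.14-fold among the wild-types.

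These values rest on few reads. Before scaling, Zfp36 had 293.5 and 231.1 read equivalents in mutants 38 and 39 and 110.9 and 52.0 in wild-types 11 and 73. Counting error alone would be 5.84% and 6.58% of the value in the mutants and 9.50% and 13.9% in the wild-types, if each read were an independent molecule.

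In the fit over all 18127 genes tested, the log2 fold change of Zfp36 on log2(read equivalents + 1) was 1.38 ± 0.19 (SE; 95% interval 0.92 to 1.84). It ranked 19 by unadjusted p (1.94e-04) and did not pass after adjustment (limma adjusted p = 0.185). A fold change at least as high was found in 0.822% of the genes tested. In the authors' deposited table the p of Zfp36 was 6.43e-06, rank 40 among 31315 records, which became 0.00504 after a Benjamini-Hochberg adjustment made here. Choroid plexus abundance was also added to the model, which leaves 1 residual degree of freedom. The Zfp36 log2 fold change was then 1.37 ± 0.20 SE and passed in limma (adjusted p = 3.54e-04). This estimate was no more precise than the 1.38 ± 0.19 without the covariate. With the covariate 94 genes passed, against 1 without it. The adjusted p of Zfp36 ran from 3.54e-04 to 0.548 over the 17 alternatives tried.

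**Figure D1:**
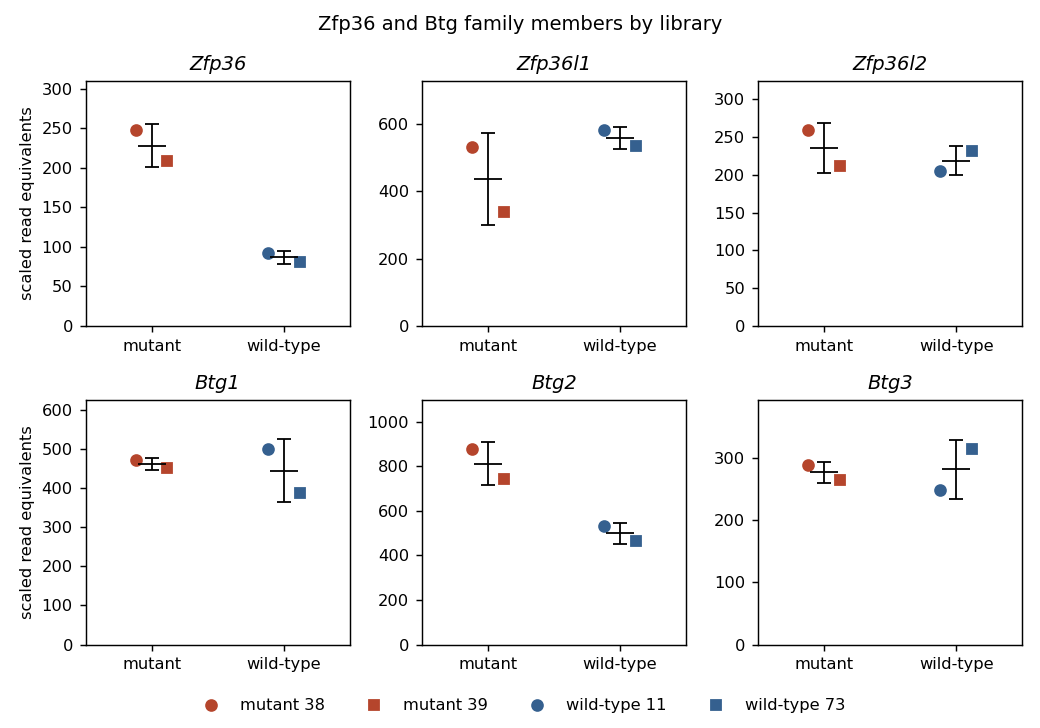
Scaled read equivalents (vertical axes, from 0) of each member in mutants 38 and 39 (red) and wild-types 11 and 73 (blue), with black bars at the group mean and SD of 2 libraries. Zfp36 and Btg2 have both mutants well above both wild-types, Zfp36l1 has mutant 39 low at 339.4, and the groups overlap for Zfp36l2, Btg1 and Btg3.

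The paralogues of Zfp36 did not share its pattern. Zfp36l1, which acts in lymphocyte development and vessel formation, had 531.4 and 339.4 scaled read equivalents in mutants 38 and 39, against 581.1 and 533.4 in wild-types 11 and 73. Both mutants were lower, but mutant 38 reached 0.996 times wild-type 73, and mutant 39 alone stood apart. The sum of the 8 mural and meningeal markers was also lowest in mutant 39. It was 3828 and 2434 in mutants 38 and 39 and 3657 and 3398 in wild-types 11 and 73. The sum does not hold for each marker, as 1 of the 8 was above and 1 below in both mutants. Their median log2 fold change was -0.011. The part of those cells in the Zfp36l1 values was not tested. On the log2 scale the Zfp36l1 difference was -0.39 ± 0.21 SE, with a 95% interval from -0.89 to 0.11 (limma adjusted p = 0.989). It was -0.71 without mutant 38 and -0.067 without mutant 39, so its size depends on mutant 39.

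Zfp36l2, needed for oocyte maturation and for blood stem cells in mice, had 259.4 and 211.8 in mutants 38 and 39, against 205.8 and 232.3 in wild-types 11 and 73. The groups overlapped. The fitted difference was 0.10 ± 0.17 SE on the log2 scale (limma adjusted p = 0.989), and its 95% interval, from -0.31 to 0.51, leaves room for a moderate change either way.

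The summed level of the 3 genes was 1039 and 760 in mutants 38 and 39, against 879 and 847 in wild-types 11 and 73, so the groups overlapped. The share of that sum from Zfp36 was 23.9% and 27.5% in the mutants and 10.5% and 9.59% in the wild-types. The share is counted in reads and not per length of transcript.

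Among the Btg genes, Btg2 stood apart in the same direction as Zfp36. It had 880.4 and 744.6 scaled read equivalents in mutants 38 and 39, against 532.6 and 464.8 in wild-types 11 and 73. Again the groups did not overlap, and the lower mutant was 1.40 times the higher wild-type. The means were 812.5 ± 96.0 in the mutants and 498.7 ± 48.0 in the wild-types (SD, n = 2 each), a ratio of 1.63.

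Btg2 rests on more reads than Zfp36, from 1043 read equivalents before scaling in mutant 38 to 297.7 in wild-type 73. Its log2 fold change was 0.70 ± 0.14 (SE; 95% interval 0.38 to 1.02), rank 41 by unadjusted p (0.00131), and it did not pass (limma adjusted p = 0.581). A fold change at least as high was found in 4.17% of the genes tested. The authors' deposited table gives Btg2 a p of 1.39e-04, or 0.0691 after the adjustment made here. With the choroid plexus covariate, where 94 genes passed, the Btg2 log2 fold change was 0.69 ± 0.13 SE and passed in limma (adjusted p = 0.00476). Its adjusted p ran from 0.00476 to 1.00 over the 17 alternatives.

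Btg1, which like Btg2 keeps progenitors from dividing, had 471.3 and 449.9 in mutants 38 and 39, against 500.4 and 387.4 in wild-types 11 and 73. Both mutants fell between the wild-types. The fitted log2 difference was 0.065 ± 0.15 SE, with a 95% interval from -0.30 to 0.43 (limma adjusted p = 0.989).

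Btg3, an antiproliferative member that restrains the cell cycle, had 288.7 and 265.0 in mutants 38 and 39, against 247.9 and 315.0 in wild-types 11 and 73. Again the mutants lay between the wild-types. Its fitted log2 difference was -0.015 ± 0.17 SE, with a 95% interval from -0.41 to 0.38 (limma adjusted p = 0.997).

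Taken as a sum, the Btg members had 1640.4 and 1459 scaled read equivalents in mutants 38 and 39, against 1281 and 1167 in wild-types 11 and 73. Both mutant sums were higher than both wild-type sums. The share from Btg2 was 53.7% and 51.0% in the mutants and 41.6% and 39.8% in the wild-types.

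By count, 0 of the 6 members passed in limma at an adjusted p of 0.05 in either direction, where 1 gene of 18127 passed (0.00552% higher and 0% lower). At an unadjusted p under 0.05, 2 of 6 were higher and 0 lower, against 2.18% of all genes tested higher and 3.94% in either direction. Mutants and wild-types did not overlap for 3 of the 6, with both mutants above for 2 and below for 1, against 16.8% and 16.5% of all genes tested. By the p of the authors' deposited table, 2 of 6 were higher at a p under 0.05, against 1.04% of its records, and after adjustment Zfp36 alone was, against 0.131%. With the choroid plexus covariate 2 of 6 passed in limma, both higher, against 0.342% of genes higher and 0.519% in either direction. Since the families were picked with this comparison known, nothing is read from these shares.

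The differences of Zfp36 and Btg2 between mutant and wild-type were similar in libraries rich and poor in choroid plexus. Within each group, both genes were higher in the library rich in it. Zfp36 had 247.8 and 208.7 in mutants 38 and 39, and 92.6 and 81.2 in wild-types 11 and 73. Btg2 had 880.4 and 744.6 in the mutants, and 532.6 and 464.8 in the wild-types. The part of choroid plexus in these levels was not tested. Within mutant 38 and wild-type 11, the libraries rich in choroid plexus, the log2 difference was 1.41 for Zfp36 and 0.72 for Btg2. Within mutant 39 and wild-type 73, the libraries poor in it, it was 1.35 and 0.68. Zfp36l1 differed more between these pairs, with -0.13 in the rich pair and -0.65 in the poor pair. These pairs were formed from the data, and each holds 1 library per group, so no test was made.

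Of the other marker lists, those of myelinating oligodendrocytes and red blood cells moved with the groups. Over all genes tested, both mutants lay above both wild-types for 16.8% and below for 16.5%, and 3.94% had an unadjusted p under 0.05. All 8 markers of myelinating oligodendrocytes were higher in both mutants, and 7 had an unadjusted p under 0.05 in limma. Their summed levels were 104245 and 92396 in mutants 38 and 39 and 84649 and 61260 in wild-types 11 and 73. The median log2 fold change was 0.44. All 6 red blood cell genes were higher in both mutants, and 4 had an unadjusted p under 0.05 in limma. Their summed levels were 6781 and 7814 in the mutants and 6234 and 4384 in the wild-types, with a median of 0.69. The 6 thalamus markers had the highest median of the lists, 0.73, with summed levels of 4168 and 1837 in mutants 38 and 39 and 1695 and 1753 in wild-types 11 and 73, so that mutant 38 alone stood well apart. Of these 6, 2 were higher in both mutants and 2 had an unadjusted p under 0.05 in limma. For oligodendrocyte precursors, 2 of 6 markers were above and 1 below in both mutants and 3 had an unadjusted p under 0.05, with sums of 6460 and 5894 in the mutants and 5758 and 5598 in the wild-types and a median of 0.069. No gene of these lists was at 0 in every library. The part of these cells in the differences of Zfp36 and Btg2 was not tested.

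Endothelial cells and microglia are further cell types in which Zfp36 can be induced. For the endothelium, 3 of 10 markers were above and 2 below in both mutants, with sums of 3888 and 3472 in mutants 38 and 39 and 3492 and 3393 in the wild-types. For microglia, 2 of 8 were above and 1 below, with sums of 6351 and 6456 in the mutants and 6345 and 6053 in the wild-types. Their median log2 fold changes were 0.18 and 0.037. An unadjusted p under 0.05 in limma was found for 0 endothelial and 1 microglial marker, against 3.94% of all genes tested. Both mutants lay above both wild-types for 16.8% of all genes tested and below for 16.5%. No gene of these lists was at 0 in every library, and the part of these cells was not tested either.

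Levels of different genes compare only per length of transcript. Lengths were exon bases of the matched GENCODE model that lie within RefSeq's gene, and the annotation behind the deposited values may differ from them. Per kilobase, Btg3 had 199 ± 33.5 scaled read equivalents in the wild-types, Zfp36l1 187 ± 11.3 and Btg2 182 ± 17.5 (SD, n = 2), and the values of these 3 overlap. Btg1 followed with 88.8 ± 15.97, Zfp36l2 with 62.1 ± 5.30 and Zfp36 with 49.2 ± 4.57 (SD, n = 2), and the wild-type values of these 3 do not overlap. Zfp36 was thus the member with the lowest level per kilobase in the wild-types, at percentile 37.1 of the genes with a model.

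In the mutants the order was different. Per kilobase, Btg2 led with 296 ± 35.0, followed by Btg3 with 196 ± 11.8, Zfp36l1 with 146 ± 45.5, Zfp36 with 129 ± 15.7, Btg1 with 92.1 ± 3.03 and Zfp36l2 with 66.7 ± 9.54 (SD, n = 2). Zfp36 lay at percentile 55.8 and overlapped with Zfp36l1, whose mutants had 178 and 114. The other neighbours in the order did not overlap. The GENCODE model of Zfp36 has a longer first exon than RefSeq's, and over its full 2790 bases in place of 1765 the level of Zfp36 was 81.8 per kilobase in the mutants and 31.1 in the wild-types, which places it below Btg1 in the mutants.

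**Figure D2:**
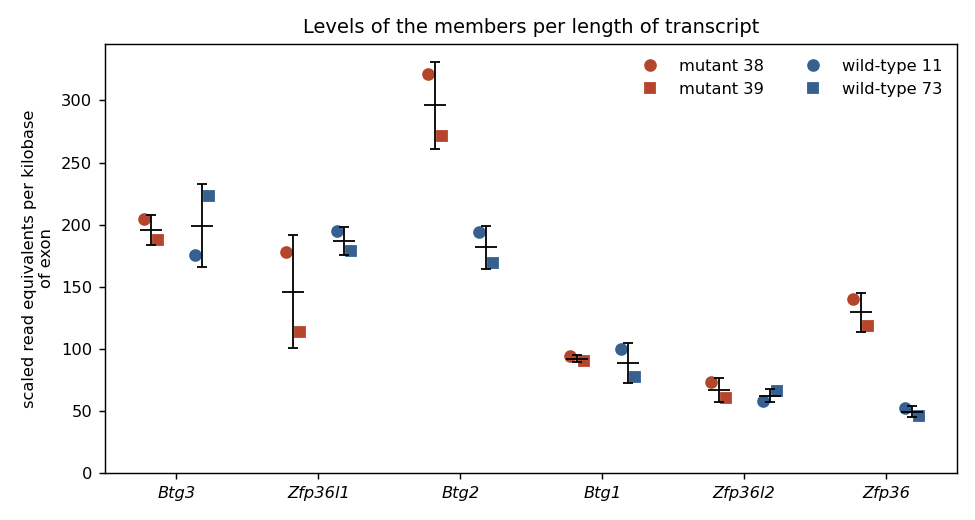
Scaled read equivalents per kilobase of exon (vertical axis, from 0) for each member, ordered by the wild-type mean, in mutants (red, left) and wild-types (blue, right) with the group mean and SD of 2 libraries in black. Zfp36 is lowest in the wild-types at 49.2 and above Btg1 and Zfp36l2 in the mutants at 129, and Btg2 is highest in the mutants at 296.

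The promoters of Zfp36 and Btg2 were compared because these members differed in the same direction. RefSeq windows of 250 bases before to 50 after the start of transcription (GRCm38.p6) matched 5 of the 6 members, all but Zfp36l2, and Btg3 has a pair of windows. Searched on both strands were the cyclic AMP response element TGACGTCA, the AP-1 site TGANTCA, the STAT site TTCNNNGAA, the GC box GGGCGG, and by name the CArG box of serum response factor and the NF-kB site. Zfp36 and Btg2 share no element of this set other than the GC box, which 35.7% of all 32851 windows hold. The set was chosen with the sequences in view, so nothing is read from a match or from how rare its element is.

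The Btg2 window has a cyclic AMP response element 166 bases before the start, an element that 1.79% of windows hold. It has 3 GC boxes. The Zfp36 window has a CArG box 58 bases before the start, which 1.63% of windows hold, and a STAT site 17 bases before it, which 8.30% hold. The CArG box overlaps the 1 GC box of Zfp36 by its first base. The full stretch before the start is shown for Btg2 (chr1:134079156-134079405, minus strand), and short stretches for Zfp36 (chr7:28379267-28379296 and chr7:28379229-28379255, minus strand), written 5′ to 3′ along the gene with the elements in capitals and GC boxes left in lower case.
Btg2: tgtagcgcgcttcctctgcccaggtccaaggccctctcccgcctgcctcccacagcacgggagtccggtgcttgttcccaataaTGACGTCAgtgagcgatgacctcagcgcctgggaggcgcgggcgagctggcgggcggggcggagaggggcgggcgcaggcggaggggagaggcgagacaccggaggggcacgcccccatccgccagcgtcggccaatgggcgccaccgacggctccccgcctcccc
Zfp36 CArG box: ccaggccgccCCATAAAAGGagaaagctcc
Zfp36 STAT site: acagcctgacTTCTGCGAAccgacagt
The windows of Zfp36l1, Btg1 and Btg3 hold none of the cyclic AMP, CArG or STAT elements. Zfp36l1 has an AP-1 site 129 bases before the start, an element in 7.81% of windows. One Btg3 window has an NF-kB site 75 bases before the start, an element in 8.46% of windows. The factors were not measured at these sites.

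The genes whose pattern over the 4 libraries was nearest to that of Zfp36 were sought among 11673 genes with a mean of at least 100 scaled read equivalents, by the Euclidean distance between log2 profiles centred on their means. The 5 nearest were the kinase scaffold gene Akap12 (distance 0.21), the small nucleolar RNA Snora81 (0.27), the vesicular glutamate transporter gene Slc17a6 (0.32), Gm15441 (0.37) and the cell cycle inhibitor gene Cdkn1a (0.43). Their log2 fold changes ran from 1.06 for Gm15441 to 1.56 for Cdkn1a, with limma adjusted p-values from 0.123 to 0.672. All 5 passed in limma with the choroid plexus covariate, where 0.342% of all genes tested passed as higher. Their adjusted p-values there ran from 1.52e-07 for Akap12 to 0.00279 for Gm15441. The 5 were chosen for their profile over these same libraries, so nothing is read from their passing. Akap12, Snora81 and Slc17a6 also passed with a robust variance prior, Akap12 and Snora81 without wild-type 11, and Akap12 without mutant 39. Over the 17 alternatives the highest adjusted p of these genes lay between 0.568 and 1.00. Slc17a6 is itself 1 of the 6 thalamus markers. Btg2 lay at a distance of 0.68 from Zfp36, nearer than the other 4 members, which lay between 1.31 and 1.79. Seen from Btg2, Zfp36l2 (0.657) and Btg1 (0.660) lay slightly nearer than Zfp36 (0.679). The members were selected on differences in these same libraries, so nothing is read from these distances.

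Profiles nearest to Btg2 were closer still. The 5 were Mafk, a small Maf transcription factor gene (distance 0.05), the calponin gene Cnn2 (0.08), the arrestin-domain gene Arrdc3 (0.10), Tmcc3 (0.14) and Ppp1r15a, a stress-induced regulator of protein phosphatase 1 (0.16). Their log2 fold changes ran from 0.56 for Ppp1r15a to 0.73 for Mafk, with limma adjusted p-values from 0.351 to 0.989. With the choroid plexus covariate Arrdc3, Tmcc3 and Mafk passed in limma (adjusted p = 0.00171, 0.0119 and 0.0376), where 0.342% of all genes tested passed as higher. Cnn2 and Ppp1r15a did not pass under any of the 17 alternatives. These genes too were chosen for their profile over the same libraries, so nothing is read from these calls. The highest adjusted p of these 5 genes over the alternatives lay between 0.980 and 1.00. Mafk, the nearest, had 368.5 and 316.8 scaled read equivalents in mutants 38 and 39, against 225.4 and 188.5 in wild-types 11 and 73. Likeness over 4 libraries is a description, and many genes that differ between the groups will share such a profile.

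**Figure D3:**
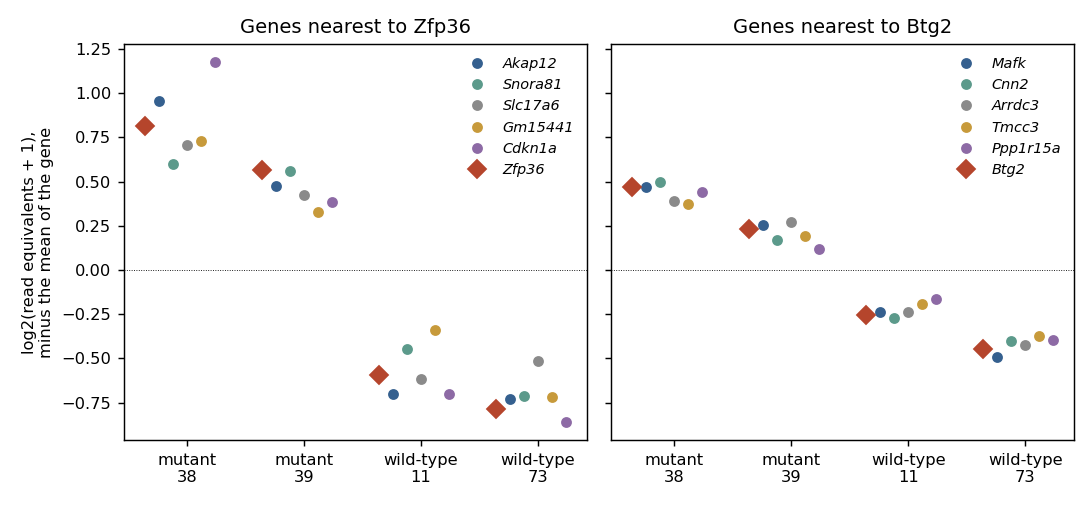
Centred log2(read equivalents + 1) in each library for Zfp36 and its 5 nearest genes (left) and for Btg2 and its 5 nearest (right). Both mutants lie above 0 and both wild-types below 0 for every gene shown, and the Btg2 set is packed more closely, with distances from 0.05 to 0.16 against 0.21 to 0.43.

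No gene of the machinery through which both families act passed the test in limma, where 1 gene of all 18127 tested did (0.00552%). An unadjusted p under 0.05 in either direction was found in 3.94% of all genes tested. Counts of 0 in lists this short lie near those shares, so no lack of change is read from them. Of the Tob genes, Tob1 had 384.0 and 245.6 scaled read equivalents in mutants 38 and 39, against 429.4 and 353.4 in wild-types 11 and 73, and Tob2 had 727.6 and 644.0 against 573.3 and 649.7. Both overlapped between the groups. Their log2 fold changes were -0.34 ± 0.23 and 0.17 ± 0.13 (SE, n = 2 per group; limma adjusted p = 0.989 for each). Btg4, which clears maternal messages in mouse oocytes, and Zfp36l3, a rodent placental paralogue, had too little signal to be tested.

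All 12 listed genes of the CCR4-NOT complex were tested, and 0 passed in limma. An unadjusted p under 0.05 was found for 0 of them, against 3.94% of all genes tested. Their median log2 fold change was -0.00045, against 0.0067 over all genes tested, and their values ran from -0.27 to 0.13. The lowest was Cnot3, a regulatory subunit, with 227.4 and 211.8 in mutants 38 and 39, against 259.1 and 269.4 in wild-types 11 and 73 (log2 fold change -0.27 ± 0.15 SE). Tnks1bp1, a protein associated with the complex, had -0.11 ± 0.10, the regulatory subunit Cnot2 had 0.11 ± 0.10 and the catalytic subunit Cnot6l had 0.13 ± 0.13 (SE, n = 2 per group), all with a limma adjusted p of 0.989.

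Later steps of decay follow deadenylation. Of 14 genes for the poly(A) tail, decapping and decay from the 5′ end, 0 passed in limma. An unadjusted p under 0.05 was found for 0 of them, against 3.94% of all genes tested. Their median log2 fold change was -0.083. The decapping factor gene Dcp1a had 518.8 and 568.8 in mutants 38 and 39, against 683.9 and 618.9 in wild-types 11 and 73 (log2 fold change -0.26 ± 0.12 SE, limma adjusted p = 0.989). The tail-binding protein gene Pabpc4 had -0.22 ± 0.14, the decapping scaffold gene Edc4 had -0.14 ± 0.10, and the deadenylase gene Parn had 0.21 ± 0.15 (SE, n = 2 per group), each with a limma adjusted p of 0.989.

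For the exosome, which degrades RNA from the 3′ end, 0 of 14 genes passed in limma, and the median was -0.077. Of the 14, 1 had an unadjusted p under 0.05, against 3.94% of all genes tested. That gene was Exosc6, a core ring subunit, with 106.5 and 114.4 in mutants 38 and 39, against 153.8 and 220.4 in wild-types 11 and 73. Both mutants lay below both wild-types, by -0.73 ± 0.22 SE on the log2 scale (limma adjusted p = 0.989). Exosc3 had -0.36 ± 0.21, Exosc2 -0.22 ± 0.17 and the catalytic Exosc10 -0.14 ± 0.11 (SE), with the same adjusted p.

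Other proteins that bind AU-rich or related elements compete with or complement Zfp36. Of 15 such genes, 0 passed in limma and 0 had an unadjusted p under 0.05, against 3.94% of all genes tested. Their median log2 fold change was 0.0063, with a range from -0.18 to 0.12. The neuronal stabilising protein gene Elavl3 had -0.18 ± 0.11, the splicing and stability regulator Celf2 0.12 ± 0.11, Hnrnpd, which encodes the destabilising protein AUF1, 0.088 ± 0.12, and Khsrp, another destabilising protein, -0.065 ± 0.10 (SE, n = 2 per group; limma adjusted p = 0.989 for each).

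Messages known to be targets of Zfp36 proteins showed no common direction. Of 22 listed, 16 had enough signal to be tested. Of these, 0 passed in limma and 0 had an unadjusted p under 0.05, against 3.94% of all genes tested. Their median log2 fold change was 0.013. Of the 16, 14 hold the heptamer and 9 the nonamer in the GENCODE model. Ptgs2, the inducible prostaglandin synthase, had 472.8 and 534.7 scaled read equivalents in mutants 38 and 39, against 413.4 and 404.3 in wild-types 11 and 73. Both mutants were higher (log2 fold change 0.30 ± 0.13 SE, limma adjusted p = 0.989).

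The growth factor gene Vegfa had a log2 fold change of 0.18 ± 0.12, the transcription factor gene Myc 0.33 ± 0.25 and the cytokine gene Lif -0.53 ± 0.43 (SE, n = 2 per group; limma adjusted p = 0.989 for each). Lif was close to the limit of detection, with 8.66 and 9.03 in mutants 38 and 39, against 15.5 and 11.3 in wild-types 11 and 73. The cytokine genes Tnf, Csf2, Il6 and Il10, classical targets, were too low to be tested in this tissue.

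Across all genes, messages with the nonamer were set beside the rest. The 1117 tested genes with at least 1 nonamer had a median log2 fold change of 0.019, against 0.0071 for the 14921 genes without it. Of the genes with it, 22.1% had both mutants above both wild-types and 15.3% below, against 16.6% and 16.3% of those without it. Their 3′ untranslated regions also differed in length, with a median of 2077 bases for genes with the nonamer and 877 for those without. The part of length in these shares was not tested.

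Kinases, phosphatases and adaptors that act on Zfp36 proteins included the list member nearest to a call. Dusp1 encodes a phosphatase that switches off p38, the kinase whose pathway inactivates Zfp36 protein. Dusp1 had 989.1 and 901.6 scaled read equivalents in mutants 38 and 39, against 521.6 and 459.1 in wild-types 11 and 73. The groups did not overlap, with a log2 fold change of 0.95 ± 0.12 SE (limma adjusted p = 0.152).

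The Dusp1 log2 fold change passed with the choroid plexus covariate (adjusted p = 9.82e-05) and without wild-type 11 (adjusted p = 0.0389, where 0.129% of genes passed as higher), within a range of 9.82e-05 to 0.614 over the 17 alternatives, all in limma. Of the 17 genes in this list, 0 passed in limma with all libraries, and the median was 0.019. An unadjusted p under 0.05 was found for 1 of the 17, against 3.94% of all genes tested. The kinase gene Mapk3 had -0.22 ± 0.11, and the 14-3-3 adaptor genes Ywhaz and Ywhaq had -0.20 ± 0.12 and 0.44 ± 0.28 (SE, n = 2 per group; limma adjusted p = 0.989 for each).

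Ywhaq illustrates the weight of a single library. It had 1516 and 1432 in mutants 38 and 39, against 1516 and 773.5 in wild-types 11 and 73. Wild-type 73 alone was low, and the Ywhaq log2 fold change was 0.93 without wild-type 11 (limma adjusted p = 0.0393, within 0.0393 to 1.00 over the alternatives) and -0.041 without wild-type 73.

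A further list held genes of the cell cycle, arginine methylation and differentiation that are linked to Btg proteins, not all as direct partners. Of the 9 tested, 0 passed in limma. At an unadjusted p under 0.05, 1 was higher and 1 lower, against 2.18% and 1.75% of all genes tested. Cdkn1a, which like Btg2 is a p53 target, had 236.9 and 136.6 in mutants 38 and 39, against 63.6 and 56.9 in wild-types 11 and 73 (log2 fold change 1.56 ± 0.29 SE, limma adjusted p = 0.490). Both mutants lay above both wild-types, though mutant 38 was well above mutant 39. With the choroid plexus covariate the Cdkn1a log2 fold change passed (limma adjusted p = 4.38e-04, within 4.38e-04 to 0.998 over the alternatives).

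Id3, an inhibitor of differentiation factors, went the other way, with 394.6 and 321.1 in mutants 38 and 39, against 507.1 and 455.3 in wild-types 11 and 73. Both mutants were below both wild-types, by -0.43 ± 0.15 SE on the log2 scale (limma adjusted p = 0.989). The neuronal factor gene Neurod1 had -0.34 ± 0.17 and the cyclin gene Ccne1 -0.35 ± 0.20 (SE, n = 2 per group; limma adjusted p = 0.989 for each). The list's median was -0.099.

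Over all 8 lists, 98 of 107 genes could be tested. Of the 98, 0 passed in limma, and 2 were higher and 2 lower at an unadjusted p under 0.05, against 2.18% and 1.75% of all genes tested. Both mutants exceeded both wild-types for 15 of the 98 and lay below them for 25, against 16.8% and 16.5% of all genes tested.

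**Figure D4:**
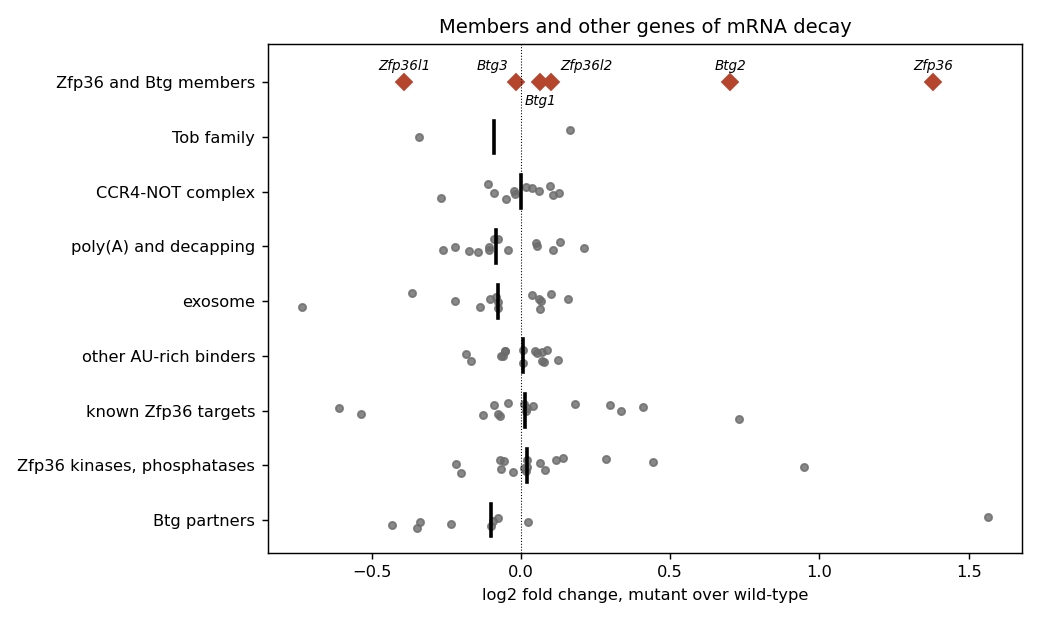
Log2 fold change of mutant over wild-type for the 6 members (red diamonds) and for the tested genes of each list of mRNA decay (grey dots, spread vertically for legibility), with black bars at list medians. Zfp36 at 1.38 and Btg2 at 0.70 lie to the right of most genes shown, with Dusp1 at 0.95 and Cdkn1a at 1.56, while the list medians lie between -0.099 and 0.019.

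Zfp36 and Btg2 kept their sign in all 17 alternatives, with log2 fold changes from 1.26 to 1.504 and from 0.58 to 0.82. Zfp36l1 kept a negative sign in all 17, from -0.71 to -0.067. Zfp36l2, Btg1 and Btg3 changed sign when single libraries were left out. None of the scaling alternatives changed the sign of a member.

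**Figure D5:**
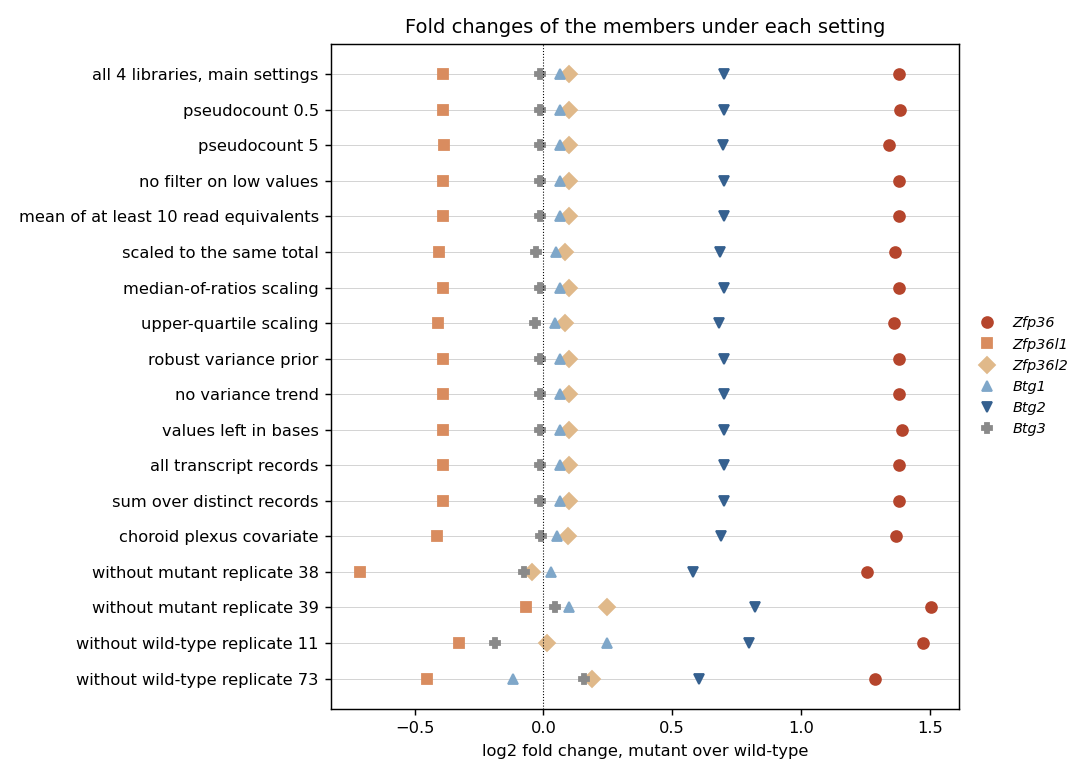
Log2 fold change of mutant over wild-type (horizontal axis) for each member under the main settings and under the 17 alternatives, each on its own line. Zfp36 stays between 1.26 and 1.504 and Btg2 between 0.58 and 0.82, while Zfp36l1 moves from -0.71 without mutant 38 to -0.067 without mutant 39.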

How the data were processed

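Ribosome-depleted total RNA of 4 hippocampus libraries was read on a single end, per the labels' protocols, which also describe a strand-specific dUTP method. GSNAP, DESeq2 and mouse build mm9 are named in the submitters' processing notes, with no roles. How reads were counted, with which strand setting and on which annotation, is not given in the sources used here. The deposited values are signal: in every library 100% were whole multiples of 1 step, the smallest nonzero value (tolerance 0.05). The most frequent nonzero value was 42 steps in every library, so the values were taken as aligned bases divided by a scaling factor. The authors also deposited a p-value per record, whose adjustment is not stated.

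Values were divided by 42. A gene entered the fit if 2 of its libraries reached 1 read equivalent. On log2(value + 1), limma 3.58.1 (R 4.3.3) was run two-sided with a trended variance and with Benjamini-Hochberg adjustment over all 18127 genes at 0.05. The fold change understates that of genes with few reads. The fit was also run on simulated data drawn from its own model, which checks the code and not how well the model suits these libraries. With 2 against 2 libraries an exact permutation test cannot go below 0.333. No label states that the samples are separate animals, and the p-values then cover only the spread among these samples, which may be technical. Counting errors and unscaled read equivalents cover counting only.

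Members and lists were chosen with earlier results of these data known, and the promoter motifs with the sequences in view. Genes named were the members, Atp6ap2, Ttr, up to 4 genes of each list with the smallest p, and the 5 genes nearest in pattern to Zfp36 and to Btg2. Genes too low to test are named in addition. The 17 alternatives changed the pseudocount, filter, scaling, variance prior, unit, transcript record or covariate, or left out 1 library. GENCODE models were matched for 97.5% of tested genes. Python 3.11.15 and matplotlib 3.10.9 read the table and drew the plots.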

Additional observations from a re-analysis of the deposited data

How the results depend on the processing

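With all 4 libraries 1 gene passed in limma. It was 12 with a robust variance prior, 94 with the choroid plexus covariate and 0 without the variance trend, where 938 genes had an unadjusted p under 0.05. It ran from 1 to 37 when single libraries were left out, the highest without wild-type 11. Members that passed numbered 2 with the covariate, Zfp36 and Btg2, and 0 under the other alternatives. Genes of the lists that passed numbered 2 with the covariate and from 0 to 2 with single libraries left out. The causes were not tested. Values with a changed sign came from leaving out single libraries: Zfp36l2 ran from -0.046 to 0.25, Btg1 from -0.12 to 0.25, Btg3 from -0.19 to 0.16, Atp6ap2 from -0.056 to 0.13, Hnrnpd from -0.017 to 0.19 and Ywhaq from -0.041 to 0.93. The 3 scaling alternatives moved the median of all genes by less than 0.1 on the log2 scale. The 5 genes nearest to Zfp36 and to Btg2 were the same under them, and 4 of 5 remained with a pseudocount of 5. With 1 library left in a group, its spread is assumed to match that of the other group. No paired analysis was possible because the groups share no replicate numbers. Depth limits the low genes most: Zfp36 had 52.0 unscaled read equivalents in wild-type 73.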

Other observations

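Among the listed targets too low to test, and chosen after its values were seen, the chemokine gene Ccl2 had 13.1 scaled read equivalents in mutant 38 and was listed at 0 in mutant 39 and in both wild-types. Cxcl2 likewise had 1.69 in mutant 38 and was listed at 0 in the other libraries.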
